A study of Caenorhabditis elegans with 2 samples.

Results

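rpr-1 and mrpr-1 are the genes for the RNA subunits of ribonuclease P (RNase P) and ribonuclease MRP (RNase MRP) of the worm Caenorhabditis elegans. They are 2 of the 46890 genes annotated on the nuclear chromosomes, and they were chosen by name, because they encode these RNAs. Earlier results of these data were known when they were chosen. At each gene, every entry with a summit within 200 bp was taken from the deposited region lists. The lists come from chromatin immunoprecipitation sequencing (ChIP-seq), in which DNA bound to a protein is recovered with an antibody and sequenced. The protein was T26A5.8, which RefSeq names pole-3 and describes as DNA polymerase epsilon subunit 3. Replicates 3 and 4 of a single group were sequenced, which the labels call biological replicates (n = 2). All worms were of strain OP598, with the unc-119(tm4063) III mutation and the transgene wgIs598, which expresses T26A5.8 with a GFP-FLAG tag at its C-terminus, and the immunoprecipitation used an antibody against GFP. Whole young adults of both sexes were pooled 63 hours after synchronization as starved L1 larvae. The strain is 1 transgenic line, the tagged protein is made from an inserted copy, and values from whole animals do not show in which tissue the protein lay on the DNA. There was no second condition, and control libraries were not analysed here, so the values describe where and how strongly the genes stand in the lists.

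RNase P removes the 5′ leader of precursor transfer RNAs, and RNase MRP is a related enzyme that cuts precursor ribosomal RNA. Each enzyme consists of a catalytic RNA and a set of proteins, most of which are shared between both enzymes in eukaryotes. In vertebrates, RNA polymerase III makes both RNAs from short genes with control elements before the transcribed part. The U6 small nuclear RNA gene is built alike, whereas transfer RNA genes carry their control elements inside the transcribed part. The vertebrate counterpart of the tagged protein, POLE3, is a histone-fold subunit of DNA polymerase epsilon, an enzyme of chromosome replication.

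The sequence around the start of mrpr-1 is shown because it holds the summit of the strongest entry in each of the 4 lists and a stretch that was also found before rpr-1. It runs from 120 bases before the gene to 66 bases into it, at chrII:7200113-7200298 on build WBcel235 (the same assembly as ce11), plus strand, from RefSeq's genome. Capitals mark the bases that are identical before rpr-1 in the best ungapped match of 25 bases, and the first TATA after it. The gene begins at base 121 of the line, and the summit of the thresholded list is base 180.
mrpr-1: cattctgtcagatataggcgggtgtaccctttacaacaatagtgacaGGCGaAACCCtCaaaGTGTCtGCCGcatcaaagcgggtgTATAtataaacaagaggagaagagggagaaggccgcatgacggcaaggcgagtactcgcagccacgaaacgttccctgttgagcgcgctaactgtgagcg

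Of the 25 aligned positions, 19 were identical in the 2 genes, against at most 14 for any match in another register of the 120 bases before each gene. The stretch lay at nearly the same distance from both genes: it ran from base -73 to -49 before mrpr-1 and from base -71 to -47 before rpr-1. The next TATA began 14 bases after it at mrpr-1 and 16 bases after it at rpr-1, at base -34 and base -30. Among the motifs searched on the gene strand in the 50 bases before the start, TATATA was present at both genes, and TATAAA, which overlaps it, at mrpr-1 but not at rpr-1. TATATA was present in that window at 14.7% of 129 snRNA genes, 2.6% of 346 snoRNA genes, 0.98% of 612 tRNA genes and 1.87% of 7764 genes annotated as ncRNA. For TATAAA the shares were 7.75% of snRNA, 2.89% of snoRNA, 2.61% of tRNA and 2.61% of ncRNA genes. GTTCGANNC, the inner part of the B box of tRNA genes, was searched on both strands inside the genes. It was present in neither rpr-1 nor mrpr-1, and in 72.2% of tRNA genes. In the other classes it was rare: 0.775% of snRNA genes, 2.6% of snoRNA genes and 5.06% of ncRNA genes. Its absence is therefore not particular to the 2 members. TTTT was present within 30 bases after the annotated end of mrpr-1, but not of rpr-1. It was present there at 98.9% of tRNA genes, 52.9% of snoRNA genes, 38.8% of snRNA genes and 31.1% of ncRNA genes.

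The shared stretch was then looked for before all other genes, because it stood at the 2 members. It was found after the values were known, so the counts are a description. At least 15 of the 19 bases, followed by TATA after 8 to 24 bases, were present on the gene strand in the 120 bases before 9 of 46888 other genes (0.0192%). The 9 genes were 4 snRNA, 2 snoRNA, 2 ncRNA genes and 1 piRNA gene, and none was a tRNA or protein-coding gene. Of these 9, 2 had a thresholded summit within 200 bp: the snoRNA gene ZK994.7, whose region was the strongest of the whole list at a signal of 393.9, and the snRNA gene F54D8.7, at 139.0 and rank 73. The ncRNA genes lfor-1 and lfor-2 matched all 19 bases and had no thresholded summit, and their strongest pooled entries had signals of 33.2 and 26.8. A match to the stretch was therefore present at genes with and without a thresholded region. Without the TATA, at least 15 of the 19 bases stood before a further 70 genes, 11 of them (15.7%) with a thresholded summit. Most of these 70 were snoRNA genes (32) and snRNA genes (18), and a thresholded summit stood at 13.0% of all snoRNA genes and 10.1% of all snRNA genes, so neither count is read as a result about the stretch. The lines compare the matches, in each from the first base of the stretch to 4 bases past TATA, 5′ to 3′ on the gene strand, with the matching bases and TATA in capitals. They lie at chrII:7200160-7200206 (mrpr-1), chrV:8500494-8500544 (ZK994.7), chrIII:5080922-5080970 (F54D8.7), chrII:14636115-14636165 (lfor-1) and chrII:14641637-14641687 (lfor-2) of WBcel235. mrpr-1 and ZK994.7 lie on the plus strand, and F54D8.7, lfor-1 and lfor-2 on the minus strand.
mrpr-1: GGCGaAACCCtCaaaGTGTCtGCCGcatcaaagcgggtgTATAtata
ZK994.7: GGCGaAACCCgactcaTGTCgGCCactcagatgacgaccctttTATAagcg
F54D8.7: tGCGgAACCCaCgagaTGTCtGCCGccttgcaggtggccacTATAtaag
lfor-1: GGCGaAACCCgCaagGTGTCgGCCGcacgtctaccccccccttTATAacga
lfor-2: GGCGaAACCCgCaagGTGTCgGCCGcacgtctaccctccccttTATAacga

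In the aligned lines, the block beginning AACCC and the block TGTC, followed by GCC, were in capitals at every gene shown. Besides mrpr-1, the genes shown were picked from the 9 for a thresholded summit or for the most matching bases. All had to match at least 15 of the 19 bases, so shared capitals were largely set by this choice. The bases between the stretch and TATA were nearly the same in lfor-1 and lfor-2 and differed more among the other genes shown. The gene sequence of F54D8.7 occurs 3 times among annotated snRNA, snoRNA and ncRNA genes, so reads within it could come from any copy. The snRNA genes Y9C9A.111, C28A5.7 and K09C6.12, also among the 9, each have a sequence that occurs 14 times. The 9 genes may therefore not be independent matches. No such copy exists for the 2 members: every 31-base word of both genes and of the 200 bases on each side occurred once in the nuclear genome. The GC content was 51.0% in rpr-1 and 53.2% in mrpr-1, against 35.4% in the nuclear genome.

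Both RNA genes had a region in the authors' thresholded list, which holds 369 regions that passed a threshold on reproducibility between replicates. This is 2 of 2 members, beside 648 of all 46890 genes (1.38%) and 138 of 7764 ncRNA genes (1.78%) with a thresholded summit within 200 bp. With 2 genes, chosen when earlier results of these data were known, there is no test of this share. The same 2 genes had a thresholded summit when the distance was 50 bp or 1000 bp. rpr-1 stood near the top of the list, and mrpr-1 was rank 105, within the strongest 28.5% of regions.

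rpr-1, the gene for the catalytic RNA of RNase P (WBGene00045238), is annotated at 13463955 to 13464207 on the plus strand of chromosome I, and is 253 bp long. Its thresholded region, from 13463845 to 13464060, had a signal of 333.2, which is the enrichment value of the authors' caller and has no stated scale. That was rank 3 of 369 and 3.16 times the list's median of 105.6. In the list made from the pooled alignments, which holds 30000 candidate regions including background, the signal was 338.6, again rank 3. The 2 replicate lists gave it 210.8 (rank 2 of 30000) in replicate 3 and 127.1 (rank 5 of 30000) in replicate 4. rpr-1 was thus among the first 5 entries in all 4 lists. Each list held 1 entry within 200 bp of the gene, and the only other entries within 2000 bp were weak ones more than 1000 bp downstream of the start, at 22.8 in the pooled list and 14.8 in replicate 4.

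mrpr-1, the gene for the RNA of RNase MRP (WBGene00045095), is annotated at 7200233 to 7200418 on the plus strand of chromosome II, and is 186 bp long. Its thresholded region, from 7200112 to 7200471, had a signal of 123.7, or 1.17 times the median of the list. The pooled entry had a signal of 117.3 and was rank 113 of 30000, or 4.38 times the median of that list. In replicate 3 the strongest entry had a signal of 59.6 at rank 200, and in replicate 4 it had 61.6 at rank 88. mrpr-1 was thus below rpr-1 in every list, by rank and by signal. Replicate 3 held a second entry at mrpr-1, with a signal of 31.7 at rank 1705, that overlaps the first. The deposited −log10 q-value in the thresholded list was 2.40 for both genes, so it does not order the 2 genes. Of the 369 regions, 126 had this value or a higher one.

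**Figure D1:**
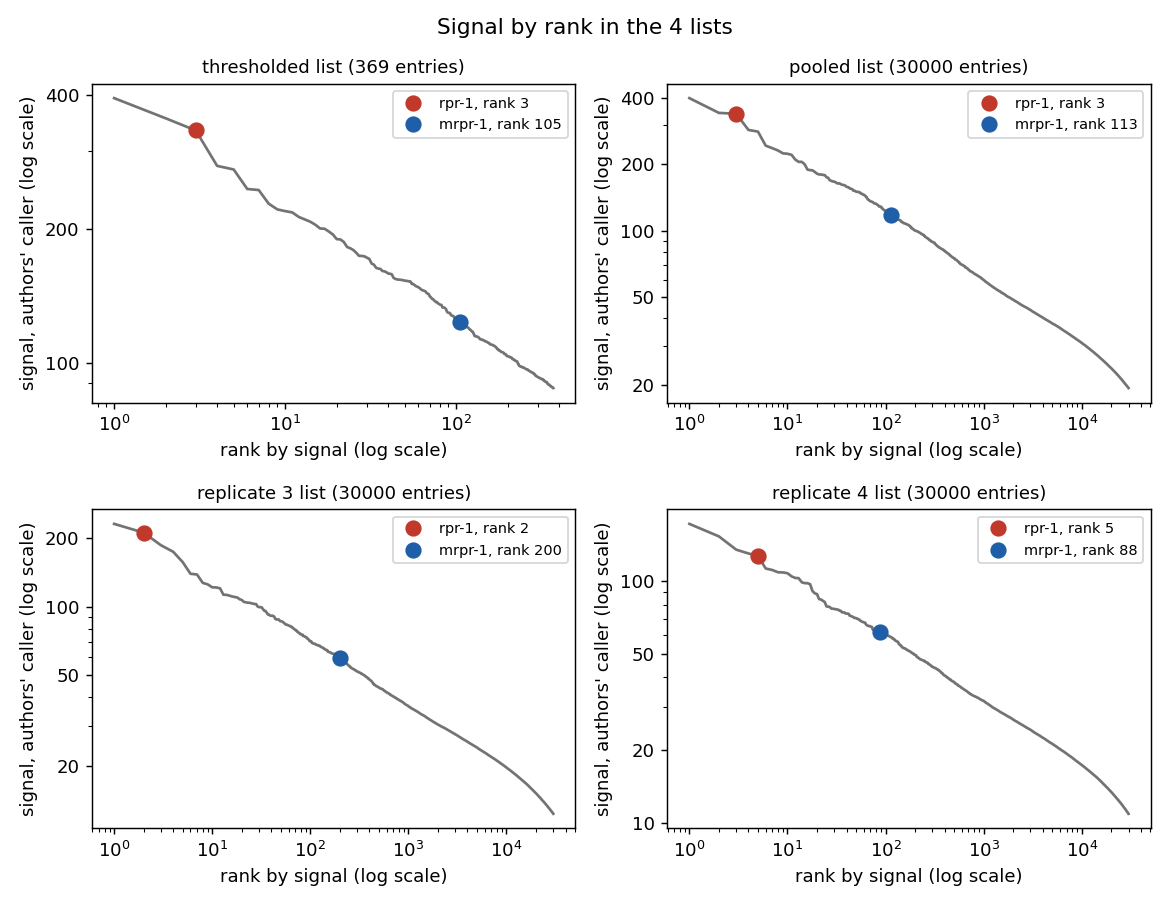
Signal against rank, both on log scales, in the thresholded, pooled, replicate 3 and replicate 4 lists; the line is the whole list and the points are the strongest entries at rpr-1 and mrpr-1. rpr-1 lies between rank 2 and rank 5 in the 4 lists, and mrpr-1 between rank 88 and rank 200.

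The summits at rpr-1 lay just inside the start of the gene. They stood 18 bp after the annotated start in the thresholded list, 16 bp in the pooled list, 17 bp in replicate 3 and 24 bp in replicate 4. The 4 positions spanned 8 bp and were between 6.32% and 9.49% of the way into the gene. The summits at mrpr-1 were less closely placed. They stood 59 bp after the start in the thresholded list, 41 bp in the pooled list and 64 bp in replicate 4, while the strongest entry of replicate 3 had its summit at -5 bp, before the start. The second entry of replicate 3 had its summit at 194 bp, past the end of the gene, so that its 2 summits flanked the gene and the single summit of the other lists lay between them. The replicate summits were 7 bp apart at rpr-1 and 69 bp apart at mrpr-1, against a median of 30 bp over the 366 thresholded regions with an entry in both replicates, and 67 of these (18.3%) were as close as at rpr-1 or closer. At both genes the entries of the thresholded list also covered the shared upstream stretch and its TATA, so the lists do not separate the upstream elements from the first part of the gene.

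**Figure D2:**
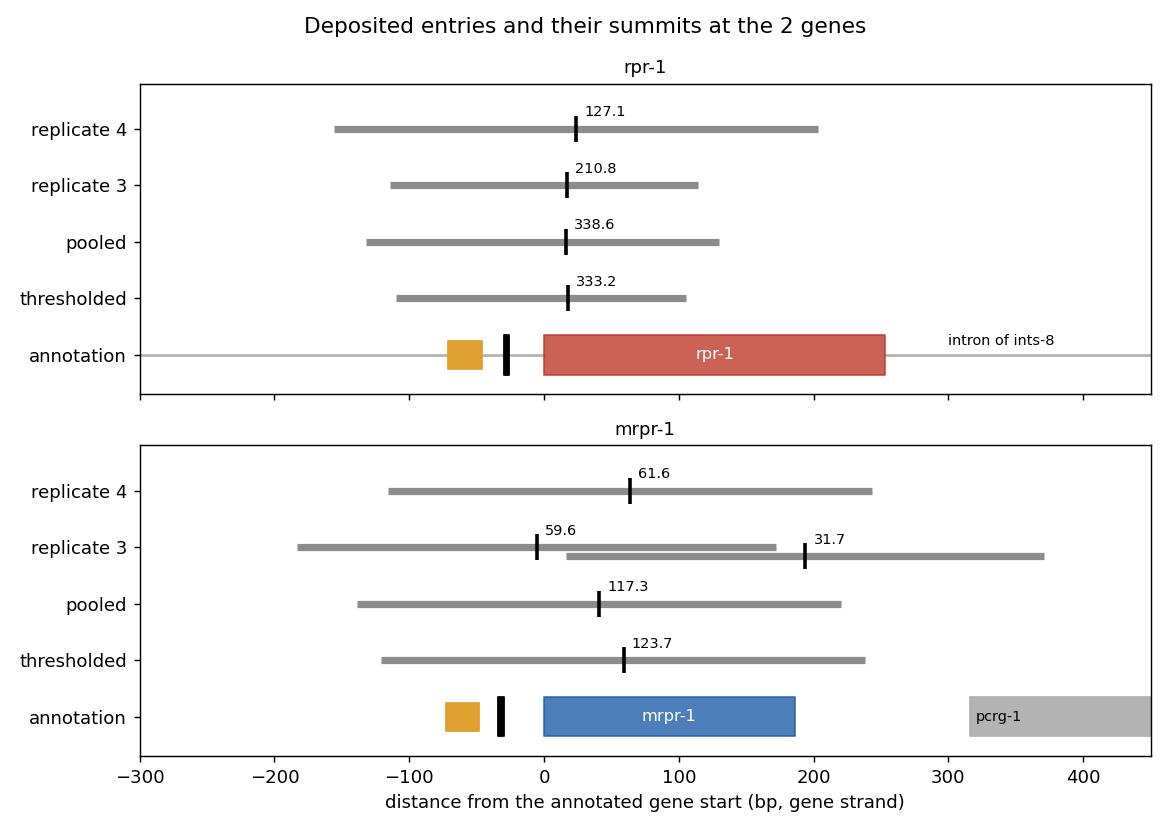
Deposited entries (grey bars) at rpr-1 and mrpr-1 with their summits (black ticks) and signals, by distance in bp from the annotated gene start along the gene strand. The orange box is the shared upstream stretch, the black box its TATA, and the summits at rpr-1 fall within 8 bp whereas those of the strongest entries at mrpr-1 span 69 bp.

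The width of the entries also differed. The thresholded region at rpr-1 was 216 bp wide, and 14 of the 369 regions, itself included, were no wider. Its entry was 229 bp wide in replicate 3 and 360 bp wide in replicate 4. The regions next to it in rank were narrow too: 271 bp at ZK994.7, 238 bp at C51F7.3 and C51F7.4, 225 bp at W03C9.9 and 183 bp at T03F7.8. At mrpr-1 the thresholded region was 360 bp wide, the width of 349 regions. Signal in replicate 3 was 1.66 times that in replicate 4 at rpr-1, and 0.97 times at mrpr-1. Across the 366 regions the median ratio was 1.25, with 298 regions (81.4%) lower than rpr-1 and 83 (22.7%) lower than mrpr-1. The 2 genes thus stood on either side of the typical ratio and neither was at its extreme, and with 1 value per replicate this difference between them has no test.

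**Figure D3:**
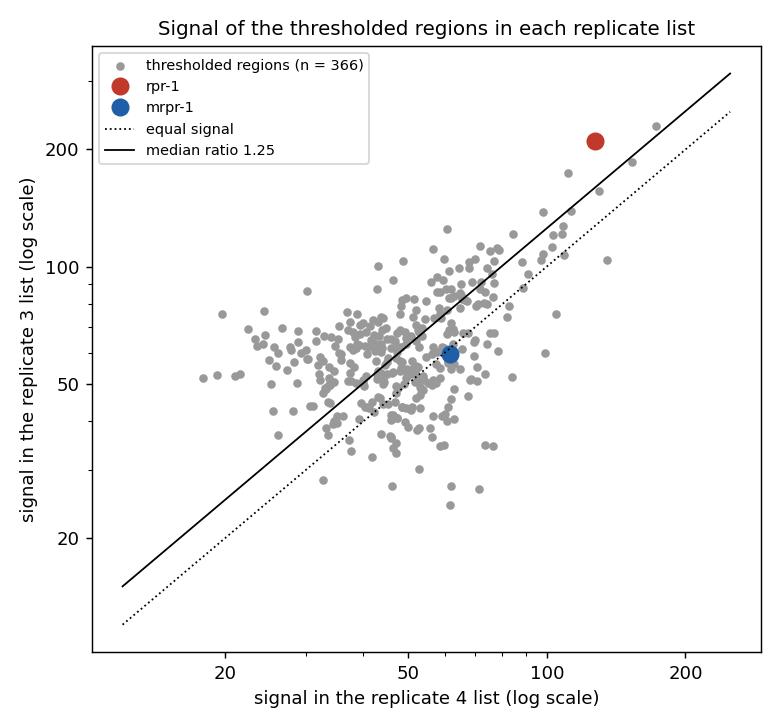
Signal of each thresholded region in the replicate 3 list against its signal in the replicate 4 list, on log scales, for the 366 regions with an entry in both; lines mark equal signal and the median ratio of 1.25. rpr-1 is among the highest in both replicates, and mrpr-1 lies near the line of equal signal.

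rpr-1 lies inside another gene. It is within an intron of 2023 bp of ints-8, which encodes a subunit of the Integrator complex, a complex that processes the ends of small nuclear RNAs, and is transcribed from the opposite strand. The gene overlaps no ints-8 exon and is 1216 bp and 554 bp from the exons on its left and right. The thresholded summit at rpr-1 was 6398 bp downstream of the ints-8 start, where the strongest pooled entry within 200 bp had a signal of 36.5 at rank 5812. The region counted for ints-8 is thus the one at rpr-1. The nearest other genes were the piRNA gene 21ur-15556 at 3520 bp and Y48G10A.3 at 6384 bp, neither with a thresholded summit. The nearest other thresholded region was 112.2 kb away and had a signal of 90.3, and rpr-1 had the strongest of the 50 regions of its chromosome.

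mrpr-1 lies between 2 protein-coding genes. pcrg-1, annotated as a homolog of the Parkin coregulated gene protein, starts 130 bp past its end on the same strand, and E04F6.6, an uncharacterized gene on the other strand, starts 667 bp before it. The thresholded summit at mrpr-1 was 257 bp upstream of the pcrg-1 start and 727 bp from the E04F6.6 start, and no pooled summit lay within 200 bp of either start. The second entry of replicate 3 at mrpr-1 had its summit 122 bp upstream of the pcrg-1 start. It ended at 7200604, inside pcrg-1, which starts at 7200549. The thresholded region ended 78 bp before the pcrg-1 start, so it lies over both mrpr-1 and the sequence just upstream of pcrg-1, and whether it belongs to one gene or to both was not tested. The nearest other thresholded region was 16.2 kb away, with a signal of 133.1, and mrpr-1 was rank 16 of the 60 regions on its chromosome.

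Set beside the other classes of small RNA genes, rpr-1 stood above nearly all regions and mrpr-1 within their range. Of the 116 thresholded regions beside a tRNA gene, with signals from 88.1 to 207.6 and a median of 105.8, none was above rpr-1 and 30 (25.9%) were above mrpr-1. Of the 45 regions beside a snoRNA gene, with a median of 136.1, 2 were above rpr-1 and 29 (64.4%) above mrpr-1. Of the 12 beside an snRNA gene, with a median of 110.0, none was above rpr-1 and 5 (41.7%) were above mrpr-1. A thresholded summit lay within 200 bp of 22.1% of tRNA genes, 13.0% of snoRNA genes and 10.1% of snRNA genes. Of the 138 ncRNA genes with a summit, 23 had no tRNA, snoRNA or snRNA gene beside the region, and among these rpr-1 had the highest signal and mrpr-1 the sixth, where the median was 103.2.

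**Figure D4:**
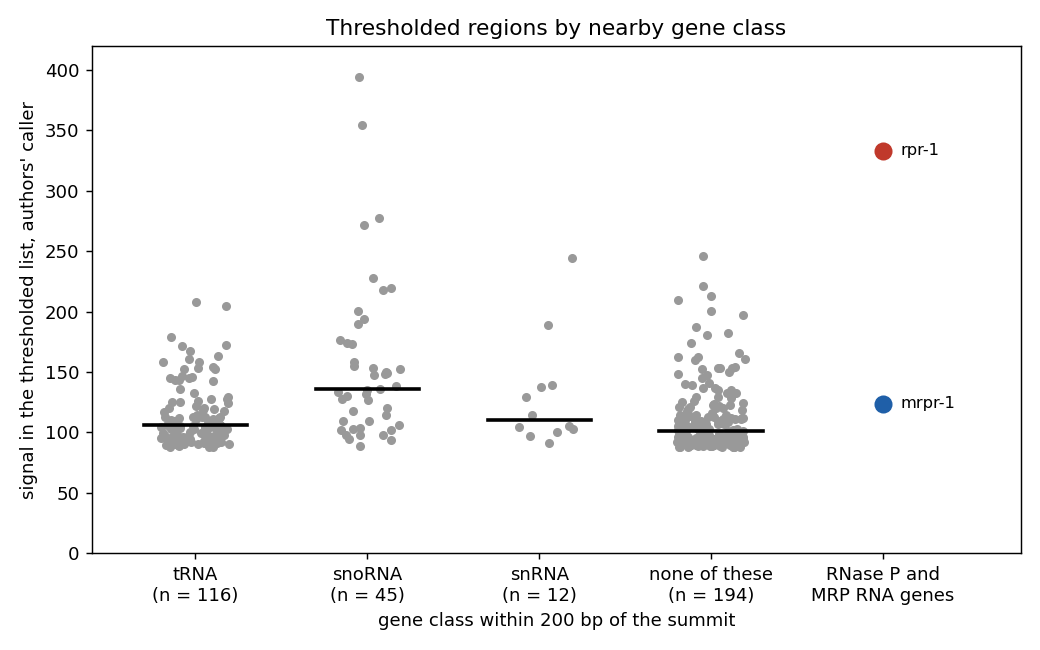
Signal of the thresholded regions by the class of gene within 200 bp of the summit, each grey point 1 region and each bar the median, with rpr-1 and mrpr-1 as coloured points. rpr-1 at 333.2 is exceeded by 2 regions, both beside snoRNA genes, and mrpr-1 at 123.7 lies within every class.

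The regions next to rpr-1 in rank stood beside snoRNA genes, which encode guides for the modification of ribosomal and other RNAs and in worms often lie in introns. Above it were ZK994.7 (393.9), where pxn-1 was the gene nearest the summit, and the pair C51F7.3 and C51F7.4 (354.8), where it was frm-7. Below rpr-1 were W03C9.9 (277.3), T03F7.8 (272.1), where cutl-18 was nearest the summit, and a region with no gene within 200 bp (246.0). Whether these snoRNA genes lie inside the protein-coding genes was not checked. The 3 regions most like rpr-1 in the 2 replicate signals, by the sum of absolute log2 differences, were those at C51F7.3 and C51F7.4 (a sum of 0.45), T03F7.8 (0.46) and W03C9.9 (0.47). Around mrpr-1, the 3 regions above stood beside F59C12.11 with the tRNA gene F59C12.t3 (124.8), ZK678.11 with the tRNA gene ZK678.t1 (124.7), and no gene within 200 bp (124.0). The 3 below stood beside D2030.12 (123.7), Y22D7AL.10 (123.1) and the ncRNA gene T04C12.14 (122.9). Most like mrpr-1 in the replicates were the regions at C15F1.5 with sup-39 and mir-1831, both annotated as snRNA genes (0.07), T04C12.14 (0.09) and rps-16 (0.10), which encodes a protein of the small ribosomal subunit. These likenesses rest on 2 values per region.

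The genes for the protein subunits of the enzymes had no thresholded region. None of the 7 genes named or annotated as RNase P or MRP proteins had a thresholded summit within 200 bp, beside 302 of 19973 protein-coding genes (1.51%). At this background, 0 of 7 is not a result about these genes. In the pooled list, 5 of the 7 had an entry within 200 bp of the gene, beside 56.7% of all protein-coding genes and 32.8% of all genes, so this count is not a result about them either: H35B03.2, annotated as subunit p30 (33.3), Y62E10A.24, annotated as subunit p20 (29.7), popl-4, annotated as subunit p29 (27.0), popl-7 (25.9) and popl-1, the lowest of them. popl-7 and Y62E10A.24 overlap, so an entry can be counted for both. RefSeq describes popl-7 as protein kish and not as a subunit of either enzyme, so its place among the 7 rests on its name alone. popl-5, annotated as the POP5 subunit, and Y37E11AM.4, annotated as ribonuclease P, had none. All 5 signals were below the 117.3 of mrpr-1 in the same list, where the median of all entries was 26.8.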

How the data were processed

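Per the labels and the deposited notes, the authors made a list of peaks and background for each replicate and for the pooled alignments, and an optimal thresholded list from them by irreproducible discovery rate (IDR), a measure of how alike regions rank between replicates. No aligner, caller or version is given in the sources used here. In the deposited lists each entry has a signal (the caller's enrichment value, with no stated scaling), a −log10 q-value and a summit offset. Signals were therefore compared and ranked only within a list, apart from the ratio of the replicates, which was set against the same ratio of all regions. The lists hold no read counts, so depth is unknown and no interval is given.

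Coordinates are on ce11, counted from 1, and no entry of the 4 ce11 lists ran past a chromosome end of WBcel235. Genes came from Ensembl release 115 and RefSeq. A summit was assigned to a gene at a distance of 200 bp or less from any part of it, which was tested on simulated entries. Pandas 2.3.3 and numpy 2.4.6 were used. Distances of 50, 100, 500 and 1000 bp, other lists, merged entries and the stronger 184 regions were tried as alternatives.

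Named genes were the members, their host or neighbours, the protein subunit genes, the 3 regions above and below each member by rank and the 3 most alike. Genes named for the upstream stretch, and xrn-2 and fib-1 of the tRNA and rRNA maturation genes, were named outside this rule after their values were seen. The same holds for rrn-4.15 and rrn-4.11 of the 5S ribosomal RNA genes. The list of maturation genes was set by name in the plan. Members and lists were chosen with earlier results of these data known.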

Additional observations from a re-analysis of the deposited data

How the results depend on the processing

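Both genes kept a thresholded summit at distances of 50, 100, 500 and 1000 bp, by overlap of the region with the gene, and in the stronger 184 regions. The share of all genes with one was 0.951% at 50 bp, 1.12% at 100 bp, 1.76% at 500 bp, 2.13% at 1000 bp and 0.738% for the stronger regions. No protein subunit gene gained a thresholded summit at 50, 500 or 1000 bp or in a window from 1000 bp upstream to 200 bp downstream of its start. In the lists of single replicates, rpr-1 had ranks of 2 and 5 and summits at 17 and 24 bp, and mrpr-1 ranks of 200 and 88 and summits at -5 and 64 bp. The list of replicate 3 alone thus put mrpr-1 over 1.5 times lower in rank than the pooled list, at 113, and moved its summit before the gene start; the cause was not tested. After merging overlapping entries the pooled ranks were 3 and 112. In the pooled ce10 list, an entry of equal signal (within 0.01%) stood at rank 3 for rpr-1 and 113 for mrpr-1. This match was by signal and not by position. The ce10 list of replicate 3 held no entry of equal signal for either gene, and the ce10 thresholded list held 609 regions against 369 on ce11. Of other genes with the upstream stretch and TATA, 22.2% had a thresholded summit at 15 bases or more, 17.6% at 14 and 40.0% at 16; the ce10 match and these limits were chosen after seeing the data. No paired analysis was possible because there was 1 group. Unknown depth and 2 replicates limit all values.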

Other observations

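Other genes of the pathways in which the 2 enzymes act were looked at for comparison. Of 20 matched genes for tRNA and rRNA maturation (2 names were not found), 2 had a thresholded summit within 200 bp, beside 1.51% of all protein-coding genes; with so few genes this is a count only. These were xrn-2, an exoribonuclease, with a signal of 120.2 and a summit 29 bp after its start, and fib-1, the methyltransferase fibrillarin, with 135.2 and a summit 164 bp past the end of the gene, in the region also beside rps-16. Both signals lie close to the 123.7 of mrpr-1 and below the 333.2 of rpr-1. The Y RNA gene yrn-1 had no thresholded summit, and its pooled entry had a signal of 44.5 at rank 2790, 29 bp after the start. None of 16 annotated 5S ribosomal RNA genes had a thresholded summit, and 2 had a pooled one, beside 1.38% and 32.8% of all genes. At a background of 1.38%, 0 of 16 is not a result about these genes. The pooled entries were at rrn-4.15, with a signal of 70.0 at rank 607, and at rrn-4.11, with 25.8 at rank 16544. These genes are annotated as copies of the same RNA. Repeats among their sequences were not checked, so entries at them are uncertain.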
